A study of Mus musculus with 18 samples.

Results

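The 10 genes described here encode precursors of hypothalamic neuropeptides: Oxt, Avp, Trh, Ucn3, Gal, Hcrt, Pmch, Agrp, Pomc and Cartpt. They were taken by symbol from a table of read counts that lists 50559 genes, and all 10 were found. RNA-seq was run on 18 poly(A) libraries of tissue labelled thalamus from mice of genotype WT. The intervene group received Coll IV and remodelin, the model group Coll IV, and the control group saline, with 6 libraries each. Remodelin inhibits NAT10, an RNA acetyltransferase, and the study asks about inflammation-related genes in thalamic haemorrhage. The labels do not spell out Coll IV, give no age, sex, time or batch, and do not say that each library is a separate animal, so every p-value below measures the spread between these libraries.

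Neuropeptides are made as long precursors that are cut in secretory granules and released to act on receptors coupled to G proteins. In the hypothalamus, which lies below the thalamus, each precursor is made at a high level by small and largely separate groups of neurons. Oxytocin and vasopressin come from magnocellular neurons, orexin and melanin-concentrating hormone from different neurons of the lateral hypothalamus, and the feeding regulators AgRP and POMC from neighbouring neurons of the arcuate nucleus.

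Libraries held between 28481225 and 118461420 counts, with control 1 the deepest. Levels are given in CPM, which are counts scaled to a common library size by TMM, and libraries are named by group and replicate number. The replicate numbers fall into 2 sets, 1 to 3 and 4 to 6, that differ widely within each group. This division was noticed in earlier results of these data and is not in the labels, so differences between the sets are a description of the libraries. Beside the members, markers of brain regions differ between the sets. The summed CPM of 11 thalamic neuron markers was 444 to 651 in intervene 4 to 6 and 605 to 676 in intervene 1 to 3, 166 to 276 in model 4 to 6 and 467 to 882 in model 1 to 3, and 119 to 134 in control 4 to 6 and 735 to 897 in control 1 to 3. That of 10 cortex and hippocampus markers was 2345 to 5434 and 1212 to 2833 in the same sets of intervene, 4148 to 6166 and 1836 to 3373 in model, and 5467 to 6340 and 391 to 2498 in control. Calb2 and Slc17a6 made up most of the thalamic sum in some libraries, with 463 and 180 of 897 CPM in control 2. Of the 11 thalamic markers, 1 (Rora) had a positive fold change in control 4 to 6 against 1 to 3. In bulk tissue, fewer cells of a type and less RNA per cell cannot be told apart.

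All 10 precursors were detected, and all passed the filter on low counts, but their levels varied widely within each group. On the FPKM scale, which divides by gene length, the median over the 18 libraries was highest for Avp (24.5 FPKM), followed by Cartpt (14.9), Oxt (11.7), Trh (9.46), Gal (7.43), Pmch (2.92), Pomc (1.18), Hcrt (0.895), Ucn3 (0.339) and Agrp (0.182). The ranges of neighbours in this order overlap throughout. The summed FPKM of the 10 genes was 872 in intervene 4, 818 in control 2 and 548 in intervene 3, while it was 6.66 to 11.9 in control 4, 5 and 6. Those controls kept mainly Cartpt, which made up 59.4 to 79.3% of the summed FPKM, against 13.0 to 36.0% in control 1 to 3. The lengths behind the deposited FPKM of Oxt, Trh and Pmch, 4548, 2768 and 1496 bases, exceed the spans of these genes in the RefSeq table, 2536, 2590 and 1303 bases, so their places in this order are less certain than their differences between libraries.

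**Figure D1:**
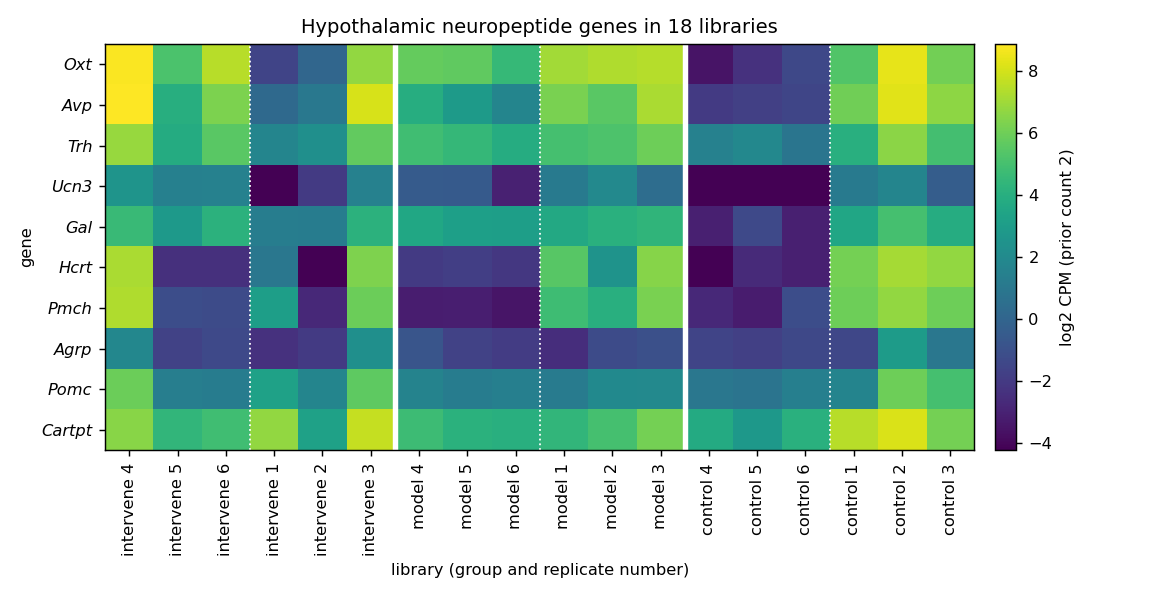
Level of each of the 10 precursor genes (rows) in each of the 18 libraries (columns), as log2 CPM with a prior count of 2. Solid white lines part the intervene, model and control groups and dotted lines part replicates 4 to 6 from 1 to 3. Control 4 to 6 are dark for Oxt, Avp, Ucn3, Gal, Hcrt and Pmch, and lighter for Trh, the row between Avp and Ucn3. Model 4 to 6 are dark for Hcrt and Pmch but not for Oxt or Gal. Agrp is dark in most libraries, control 4 to 6 and model 4 to 6 among them.

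Oxt and Avp, adjacent genes for the precursors of oxytocin and vasopressin, had high counts in most libraries and almost none in 3 controls. Oxt had 440, 36.1 and 178 CPM in intervene 4, 5 and 6, and 0.285, 1.04 and 107 CPM in intervene 1, 2 and 3. Model 4, 5 and 6 had 54.7, 50.7 and 23.0 CPM of Oxt, and model 1, 2 and 3 had 135, 162 and 170 CPM. Control 4, 5 and 6 had 0.0321, 0.139 and 0.332 CPM, from 1, 8 and 10 counts, and control 1, 2 and 3 had 40.3, 340 and 69.2 CPM. Oxt was thus near 0 in control 4 to 6 and in intervene 1 and 2, and all 6 model libraries held it.

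Avp, which regulates water balance and also serves as a pressor hormone, was lowest in the same 5 libraries. Its levels were 472, 15.8 and 79.6 CPM in intervene 4, 5 and 6, and 1.14, 2.01 and 268 CPM in intervene 1, 2 and 3. Among model libraries it had 15.6, 7.38 and 3.29 CPM in replicates 4, 5 and 6, and 76.5, 45.9 and 151 CPM in replicates 1, 2 and 3. For controls the values were 0.192, 0.243 and 0.299 CPM in replicates 4, 5 and 6, and 66.3, 308 and 102 CPM in replicates 1, 2 and 3. Replicates 4 to 6 lay below 1 to 3 without overlap in model and in control, for Avp as for Oxt, as held for 19.4% of all 18452 genes tested in model and 26.6% in control.

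The balance of both genes also differed. The ratio of Oxt to Avp counts was 0.932, 2.29 and 2.24 in intervene 4, 5 and 6, and 0.250, 0.516 and 0.401 in intervene 1, 2 and 3. It was 3.52, 6.87 and 7.00 in model 4, 5 and 6, and 1.76, 3.53 and 1.13 in model 1, 2 and 3. Control libraries had 0.167, 0.571 and 1.11 in replicates 4, 5 and 6, where no count exceeded 14, and 0.607, 1.10 and 0.681 in replicates 1, 2 and 3. In each set the 3 model libraries lay above the 3 of either other group. The ratio was examined after its values were seen, so it carries no test.

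The windows before both start sites are shown because the 2 neighbours move together across most libraries. They are RefSeq sequences of GRCm38.p6, the 250 bases before the start, read 5′ to 3′ on the strand of the gene, with AGGTCA or its reverse complement TGACCT in capitals. AGGTCA, a half-site of nuclear receptors, occurs on either strand in 14.0% of 32851 such windows. The Oxt window holds it at 185 bases before the start and its complement at 166, and the Avp window holds neither.
Oxt promoter, chr2:130575919-130576168, plus strand: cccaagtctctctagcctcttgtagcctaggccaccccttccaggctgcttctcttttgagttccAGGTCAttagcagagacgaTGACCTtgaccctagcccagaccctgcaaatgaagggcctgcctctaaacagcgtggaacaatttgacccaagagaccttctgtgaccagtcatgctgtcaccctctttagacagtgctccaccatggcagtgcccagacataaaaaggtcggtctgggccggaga
Avp promoter, chr2:130582589-130582838, minus strand: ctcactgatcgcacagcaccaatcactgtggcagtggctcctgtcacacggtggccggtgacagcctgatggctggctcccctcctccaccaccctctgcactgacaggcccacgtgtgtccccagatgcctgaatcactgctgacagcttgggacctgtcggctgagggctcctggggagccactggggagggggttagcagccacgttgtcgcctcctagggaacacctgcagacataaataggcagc

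**Figure D2:**
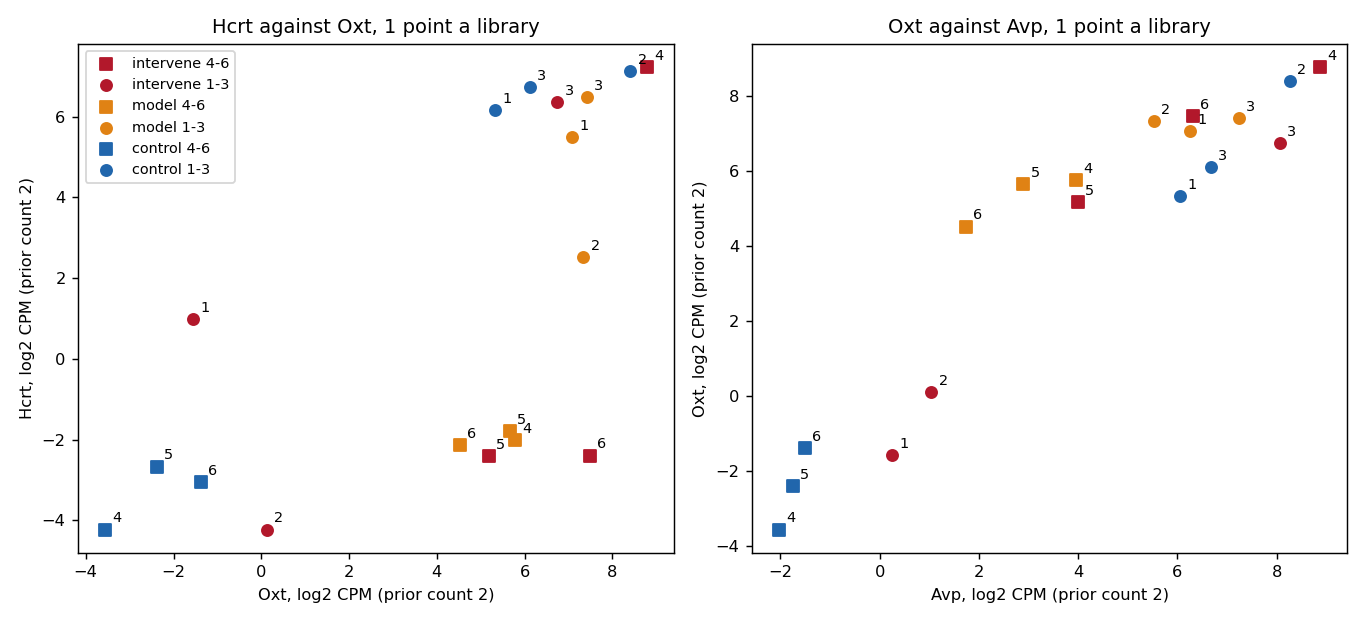
Hcrt against Oxt (left) and Oxt against Avp (right), each axis in log2 CPM with a prior count of 2, with 1 point per library labelled by its replicate number. Colours mark the groups, squares replicates 4 to 6 and circles replicates 1 to 3. At the lower right of the left plot, model 4 to 6 and intervene 5 and 6 combine Oxt of 23.0 to 178 CPM with Hcrt of 0.134 to 0.237 CPM.

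Trh, Ucn3 and Gal were low in control 4 to 6 as well, and for Trh and Ucn3 intervene 1 was as low. Trh, the precursor of thyrotropin-releasing hormone, had 117, 14.5 and 46.1 CPM in intervene 4, 5 and 6, and 3.28, 4.95 and 53.6 CPM in intervene 1, 2 and 3. Model replicates 4, 5 and 6 held 29.3, 22.7 and 14.9 CPM of Trh, and model replicates 1, 2 and 3 held 32.7, 37.3 and 64.3 CPM. It was 2.85, 3.63 and 1.76 CPM in control 4, 5 and 6, and 16.5, 96.4 and 30.8 CPM in control 1, 2 and 3. Trh kept a low level in the libraries that almost lack Oxt.

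Ucn3, the precursor of urocortin 3, a ligand of the receptor encoded by Crhr2, was the only member at 0 counts in control 4, 5 and 6. Pooled over those 3 libraries, 0 counts allow up to 0.0252 CPM if counts are independent. Most low counts were even, so they need not be, and the limit may be higher. Intervene 4, 5 and 6 had 5.88, 2.75 and 2.80 CPM of Ucn3, and intervene 1, 2 and 3 had 0, 0.194 and 2.86 CPM. Model 4, 5 and 6 had 0.670, 0.652 and 0.0700 CPM, and model 1, 2 and 3 had 2.09, 3.78 and 1.30 CPM. Control 1, 2 and 3 had 2.15, 3.26 and 0.720 CPM. Set against that limit of 3 counts over control 4 to 6, pooled Ucn3 was 151-fold higher in intervene 4 to 6, 19.4-fold in model 4 to 6 and 84.5-fold in control 1 to 3. These folds would be smaller with a higher limit.

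Gal, the precursor of galanin, was nearly absent from control 4 to 6 and present in the other 15 libraries. Its values were 25.4, 7.32 and 18.3 CPM in intervene 4, 5 and 6, and 2.50, 2.33 and 18.1 CPM in intervene 1, 2 and 3. They were 11.8, 8.80 and 8.54 CPM in model 4, 5 and 6, and 12.9, 16.8 and 19.99 CPM in model 1, 2 and 3. Control 4, 5 and 6 stood at 0.0641, 0.347 and 0.0664 CPM, from 2, 20 and 2 counts, and control 1, 2 and 3 at 11.5, 32.0 and 14.6 CPM. The highest of control 4 to 6 was thus below the lowest of every other library.

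Hcrt and Pmch, which encode the precursors of the orexins and of melanin-concentrating hormone, both regulators of arousal and feeding, differed widely between libraries of each group. Hcrt had 150, 0.134 and 0.137 CPM in intervene 4, 5 and 6, and 1.93, 0 and 82.7 CPM in intervene 1, 2 and 3. Model 4, 5 and 6 had 0.195, 0.237 and 0.175 CPM of Hcrt, from 7, 8 and 5 counts, and model 1, 2 and 3 had 45.2, 5.70 and 90.0 CPM. Control 4, 5 and 6 had 0, 0.104 and 0.0664 CPM, and control 1, 2 and 3 had 71.2, 140 and 107 CPM. Only 7 of 18 libraries exceeded 10 CPM of Hcrt, namely intervene 3 and 4, model 1 and 3 and control 1 to 3.

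Pmch exceeded 10 CPM in the same 7 libraries and in model 2. It had 162, 0.403 and 0.376 CPM in intervene 4, 5 and 6, and 8.70, 0.0971 and 61.6 CPM in intervene 1, 2 and 3. Levels were 0.0558, 0.0592 and 0.0350 CPM in model 4, 5 and 6, from 2, 2 and 1 counts, and 28.1, 16.6 and 75.9 CPM in model 1, 2 and 3. Controls had 0.0961, 0.0521 and 0.399 CPM in replicates 4, 5 and 6, and 62.9, 109 and 62.7 CPM in replicates 1, 2 and 3. In model 4 to 6, Hcrt and Pmch were thus near 0 where Oxt, Gal and Trh were not, and intervene 5 and 6 had the same combination. Pmch overlaps Parpbp, and the sources used here do not say whether counting used strand, so reads of the 2 genes cannot be told apart.

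The windows before the Hcrt and Pmch start sites are shown because these genes are high and low in nearly the same libraries. They too are RefSeq sequences of GRCm38.p6, 250 bases long and on the strand of the gene, with TATAAA, the core of a TATA box, in capitals. TATAAA or its reverse complement occurs in 12.4% of the 32851 windows. It begins 33 bases before the start in Hcrt and 27 bases before it in Pmch, and it is also in the Pomc window, at 25 bases.
Hcrt promoter, chr11:100762932-100763181, minus strand: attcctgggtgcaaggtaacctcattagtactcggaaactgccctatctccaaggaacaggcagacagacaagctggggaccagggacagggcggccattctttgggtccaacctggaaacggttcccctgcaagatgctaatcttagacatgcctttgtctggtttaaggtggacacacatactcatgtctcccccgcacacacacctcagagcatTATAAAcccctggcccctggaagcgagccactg
Pmch promoter, chr10:88090822-88091071, plus strand: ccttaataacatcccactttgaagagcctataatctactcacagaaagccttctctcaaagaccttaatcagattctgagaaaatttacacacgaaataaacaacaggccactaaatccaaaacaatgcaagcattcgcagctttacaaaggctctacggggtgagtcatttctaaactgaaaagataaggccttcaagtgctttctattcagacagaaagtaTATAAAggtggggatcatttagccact

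Agrp and Pomc, whose products block and activate melanocortin receptors, had their highest values in the same 4 libraries. They parted in intervene 1, which had 9.56 CPM of Pomc and 0.143 CPM of Agrp. Agrp had 3.55, 0.268 and 0.342 CPM in intervene 4, 5 and 6, and 0.143, 0.194 and 4.82 CPM in intervene 1, 2 and 3. Model libraries had 0.530, 0.267 and 0.210 CPM of Agrp in replicates 4, 5 and 6, and 0.123, 0.365 and 0.444 CPM in replicates 1, 2 and 3. In control 4, 5 and 6 it had 0.288, 0.243 and 0.332 CPM, and in control 1, 2 and 3 it had 0.311, 7.66 and 1.87 CPM. Agrp therefore exceeded 1 CPM in 4 of 18 libraries, intervene 3 and 4 and control 2 and 3. Agrp overlaps the predicted gene Gm38250, so its counts share the limit on strand given for Pmch.

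Pomc, the common precursor of melanocortins and beta-endorphin, was high in those 4 libraries as well. Intervene 4, 5 and 6 had 60.6, 2.55 and 2.39 CPM of Pomc, and intervene 1, 2 and 3 had 9.56, 3.27 and 48.7 CPM. Its model values were 3.02, 2.34 and 2.66 CPM in replicates 4, 5 and 6, and 2.27, 3.98 and 3.73 CPM in replicates 1, 2 and 3. Its control values were 1.92, 1.70 and 2.66 CPM in replicates 4, 5 and 6, and 3.17, 63.5 and 32.0 CPM in replicates 1, 2 and 3. All 6 model libraries thus stayed within 2.27 to 3.98 CPM. The pituitary is the other main source of Pomc. The summed level of 10 pituitary markers was 2.13 to 3.99 CPM in intervene 4 to 6 and 9.79 to 11.1 CPM in intervene 1 to 3, 0.893 to 2.16 and 4.11 to 9.72 CPM in the same sets of model, and 0.769 to 1.13 and 3.96 to 10.2 CPM in those of control. Of the 10, 3 passed the filter, namely Lhb, Tshb and Pax7, and these carried most of the sum. In intervene 1, which had the highest sum, Pax7 had 7.13 CPM and Gh 0.642 CPM, so the sum is no measure of pituitary hormone genes as a whole. Gh, Prl, Fshb, Cga and Pitx1 were at 0 in all of intervene 4 to 6, with 6 of 10 at 0 in all of model 4 to 6 and of control 4 to 6. Tbx19, a factor of the cells that make Pomc there, was highest in intervene 3 (0.808 CPM) and control 2 (0.784 CPM), and so was Cga (2.73 and 1.39 CPM). Gh and Prl were at 0 in both of these libraries. Intervene 4 and control 3, also high in Pomc, had 0.135 and 0.288 CPM of Tbx19 and 0 of Cga. The part of these cells in the Pomc values was not tested.

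Cartpt, the precursor of the CART peptides, was present in every library. It had 92.2, 21.2 and 28.9 CPM in intervene 4, 5 and 6, and 107, 9.71 and 210 CPM in intervene 1, 2 and 3. Model libraries held 26.6, 17.5 and 16.4 CPM of it in replicates 4, 5 and 6, and 21.3, 32.8 and 69.7 CPM in replicates 1, 2 and 3. Levels were 13.7, 6.84 and 16.9 CPM in control 4, 5 and 6, and 179, 286 and 69.4 CPM in control 1, 2 and 3. Intervene 1, which had almost no Oxt, had the fourth highest Cartpt, beside 76.2 CPM of the dopamine transporter gene Slc6a3, which was at 0.128 to 0.199 CPM in control 4 to 6 and 57.6 to 103 CPM in control 1 to 3.

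**Figure D3:**
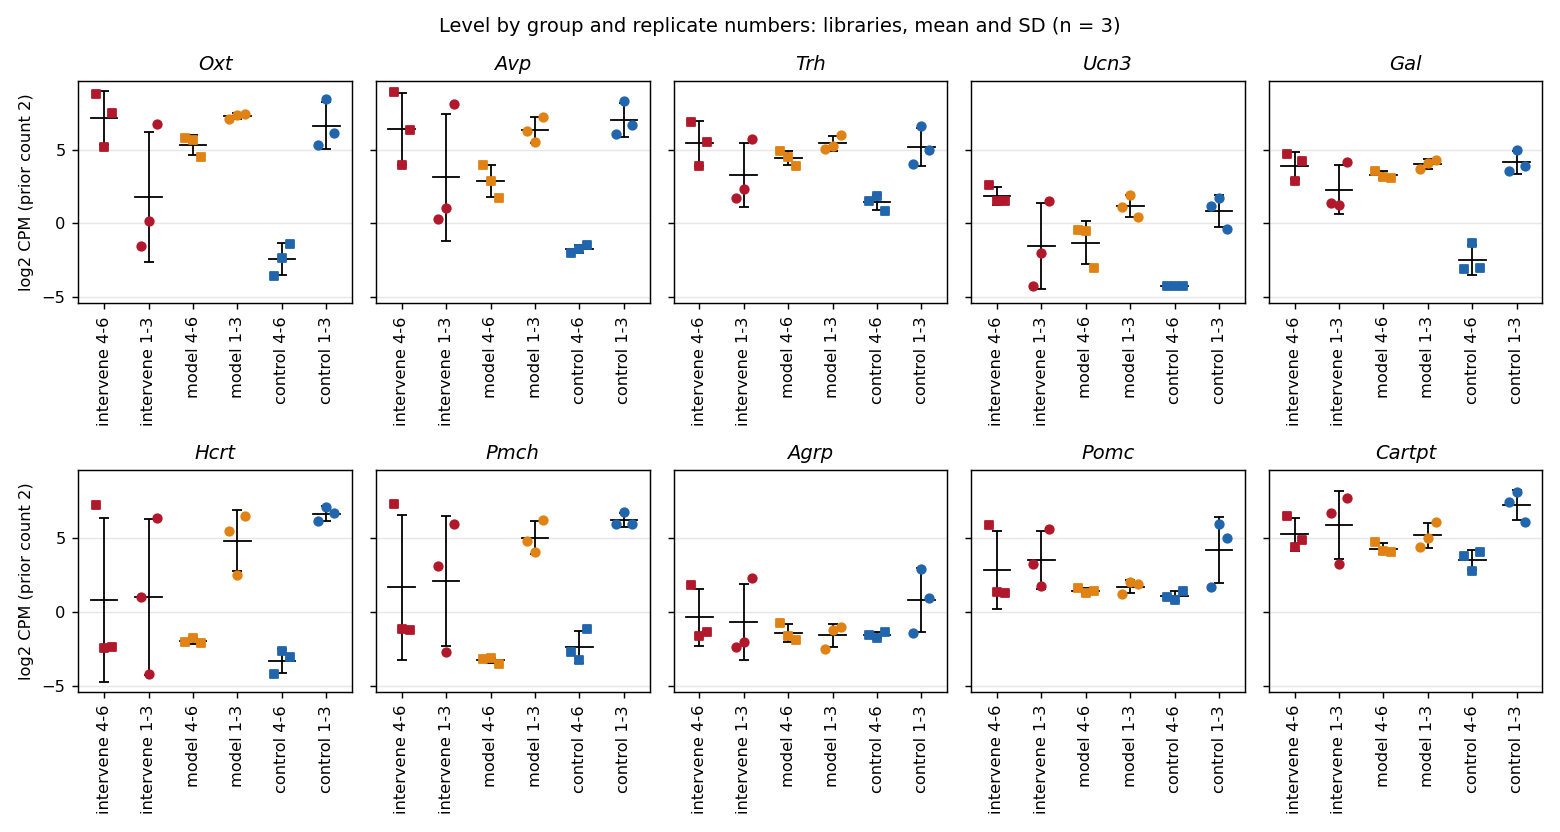
Level of each precursor gene in log2 CPM (prior count 2) by group and replicate numbers, with 1 point per library, the mean as a horizontal line and the SD as a bar (n = 3). Squares are replicates 4 to 6 and circles replicates 1 to 3. Intervene 1 to 3 spread widely because replicate 3 lies far above 1 and 2 for Oxt and Avp, and intervene 4 to 6 spread widely for Hcrt and Pmch because replicate 4 lies far above 5 and 6.

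The comparisons between groups ask what Coll IV and remodelin changed. Over all libraries no member was called in any of them, at a Benjamini-Hochberg adjusted p under 0.05 in the quasi-likelihood test of edgeR over 18452 genes. The members of lowest p were Pomc and Agrp. For intervene against model, 0 of 10 members were called, beside 0% of all genes, and 2 had an unadjusted p under 0.05, beside 2.88% of all genes. Pomc had a log2 fold change of 2.82 ± 1.02 (SE, edgeR adjusted p = 0.988) and Agrp one of 2.25 ± 1.04 (edgeR adjusted p = 0.988). Intervene 3 and 4 had the highest values of both genes, and of the other 4 intervene libraries only intervene 1, for Pomc, lay above the highest model library. The median log2 fold change of the members was 0.85, with 9 of 10 positive, against 0.0043 over all genes.

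For model against control, 0 of 10 members were called, beside 0% of all genes, and again Pomc and Agrp had an unadjusted p under 0.05, as did 1.68% of all genes. Their log2 fold changes were -2.54 ± 1.01 and -2.43 ± 1.04 (SE), each with an edgeR adjusted p of 1. Control 2 and 3 had the highest values of both, and none of the other 4 controls lay above the highest model library. The median over the members was -0.82, with 4 of 10 positive. For intervene against control, 0 of 10 members were called, beside 0% of all genes, and 0 had an unadjusted p under 0.05, beside 8.41% of all genes, with a median of 0.31 and 6 of 10 positive. DESeq2, limma-voom and limma on log2(FPKM + 1) also called 0 members in the 3 comparisons. The 3 comparisons share libraries and are not independent.

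Replicates 4 to 6 were next set against 1 to 3 within each group. Within intervene, replicates 4 to 6 against 1 to 3, 0 of 10 members were called higher and 0 lower, beside 7.76% and 7.16% of all genes, and 0 had an unadjusted p under 0.05, beside 31% of all genes. The median log2 fold change of the members was 1.11, with 8 of 10 positive. This result depended on intervene 3: without it, Oxt, Avp, Gal, Trh and Ucn3 were called higher in intervene 4 to 6. Without intervene 4, Pmch alone was called, as lower. DESeq2 and limma-voom called 0 members and limma on FPKM called Oxt.

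Within model, replicates 4 to 6 against 1 to 3, 1 of 10 members was called lower and 0 higher, beside 9.78% and 8.91% of all genes. The called member was Pmch, with a log2 fold change of -9.54 ± 3.04 (edgeR adjusted p = 0.0456), and Hcrt had -7.83 ± 2.88 (edgeR adjusted p = 0.0753). Such folds, set against 1 to 8 counts in a library, depend on edgeR's prior count. The Pmch call was lost without any 1 of the 6 model or 6 control libraries or intervene 1, while without intervene 3 the count was 3 and without intervene 4 it was 2. With these, 7 of 10 members had lower values in model 4 to 6 than in model 1 to 3 without overlap, beside 19.4% of all genes. The other 5, Oxt, Avp, Gal, Trh and Ucn3, had log2 fold changes between -3.37 and -0.77, and none was called.

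Within control, replicates 4 to 6 against 1 to 3, 9 of 10 members were called lower and 0 higher, beside 19.6% and 18.6% of all genes. Gal had a log2 fold change of -6.62 ± 1.01 (SE, edgeR adjusted p = 0.000287). That of Oxt was -9.83 ± 2.31 (edgeR adjusted p = 0.00527), of Avp -9.33 ± 2.43 (0.00935), of Pmch -8.94 ± 2.63 (0.0173) and of Hcrt -10.6 ± 3.26 (0.0219). Cartpt, Trh and Pomc lay between -4.09 and -3.85 (edgeR adjusted p = 0.00734 to 0.0371) and Ucn3 was called with an edgeR adjusted p of 0.00687. Agrp had a log2 fold change of -3.49 ± 1.42 (edgeR adjusted p = 0.0662). The median over the members was -7.78, against -0.016 over all genes. Leaving out 1 library left 6 to 10 members called, and limma-voom called 4, namely Gal, Trh, Ucn3 and Cartpt.

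**Figure D4:**
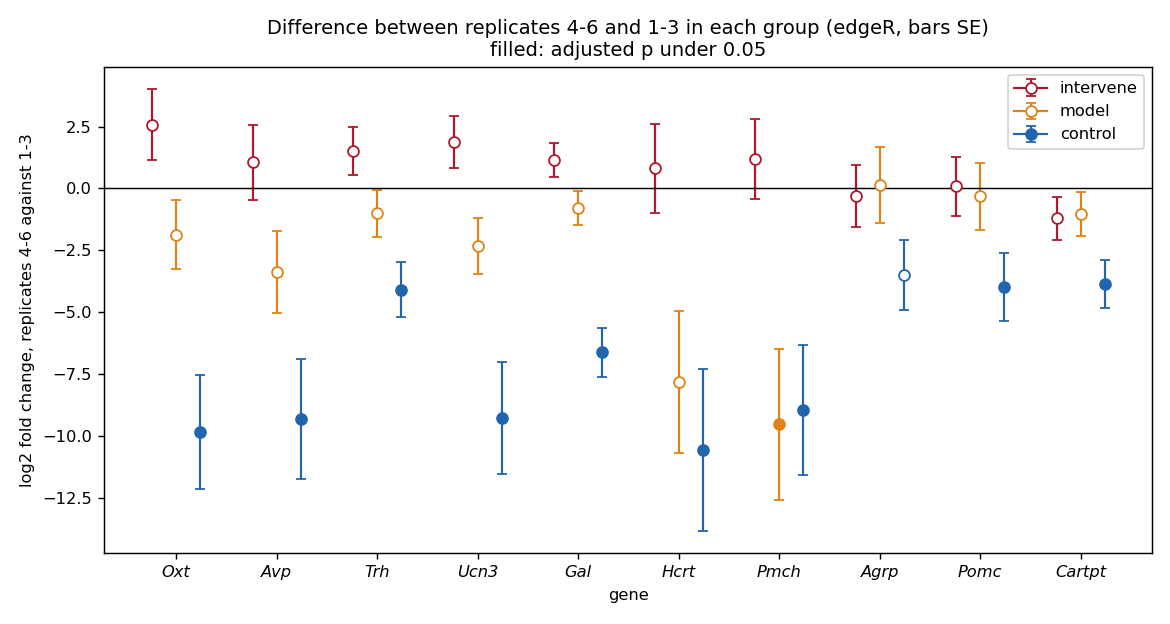
Log2 fold change of replicates 4 to 6 against 1 to 3 for each precursor gene, fitted separately within intervene, model and control in 1 edgeR model, with SE bars. Filled points had an adjusted p under 0.05, which holds for 9 genes in control, Pmch in model and none in intervene. The fitted value of Ucn3 in control is set against 0 counts and depends on the prior count.

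Compared within replicates 4 to 6, 7 of the 10 precursors were called higher in intervene than in control and 0 lower, beside 14.7% and 11.2% of all genes. Gal had a log2 fold change of 6.44 ± 1.00 (SE, edgeR adjusted p = 0.000732), Oxt one of 10.4 ± 2.33 (edgeR adjusted p = 0.00665), Avp one of 9.58 ± 2.44 (0.0128) and Trh one of 4.40 ± 1.13 (0.0127). Ucn3, 151-fold above the limit of 3 independent counts, had an edgeR adjusted p of 0.00567. Pmch, with 8.42 ± 2.61 (edgeR adjusted p = 0.0316), and Hcrt, with 9.48 ± 3.25 (edgeR adjusted p = 0.0479), were called as well. Both calls were lost without intervene 4, the 1 library of that set with high values, without control 4, 5 or 6, with no filter on low counts, with limma-voom, with limma on FPKM and with the replicate block. The Hcrt call was also lost with library totals and without control 1, 2 or 3 or model 1, 3, 4, 5 or 6. With library totals in place of TMM, 6 members were called and the split over all genes was 2136 higher and 2449 lower, against 2713 higher and 2063 lower with TMM. Without control 4 or without control 5, 4 members were called, namely Oxt, Gal, Trh and Ucn3, and limma-voom called 3, namely Gal, Trh and Ucn3.

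Markers of the choroid plexus, habenula and thalamus also differed in that comparison. Of 9 choroid plexus markers, 8 were called higher and 0 lower (median log2 fold change 5.10), with a summed level of 130 to 4097 CPM in intervene 4 to 6 and 3.33 to 6.98 CPM in control 4 to 6. Of 5 habenula markers, 3 were called higher and 0 lower (median 3.78), at a summed 25.6 to 82.4 CPM in intervene and 25.8 to 28.1 CPM in control. Of the 11 thalamic markers, 9 were called higher and 0 lower (median 2.23). None of the 9 choroid plexus or 5 habenula markers was at 0 in all libraries of either set, and the part of these tissues in the differences of the precursors was not tested.

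For intervene against model within replicates 4 to 6, 0 of 10 members were called higher or lower, beside 3.66% and 2.05% of all genes. With edgeR 5 had an unadjusted p under 0.05, beside 23.3% of all genes, of which Pmch had the lowest (log2 fold change 9.96 ± 3.03, edgeR adjusted p = 0.0739). By limma-voom the count was 0, and DESeq2 called Avp, Hcrt and Pmch. Avp, Pmch and Ucn3 did not overlap between these groups, 3 of 10 members beside 14.5% of all genes higher without overlap, and Avp and Ucn3 were called without intervene 3, a library outside this set that enters the shared estimate of the spread. With library totals the split over all genes was 401 higher and 439 lower, against 675 and 378 with TMM. For model against control within replicates 4 to 6, 0 of 10 members were called, beside 0% of all genes. Again 5 were under 0.05 before adjustment in edgeR, beside 10.2% of all genes. By limma-voom the count was 0, and DESeq2 called Oxt, Avp, Gal and Ucn3. Oxt, at 23.0 to 54.7 CPM in model and 0.0321 to 0.332 CPM in control, had a log2 fold change of 8.03 ± 2.26 (edgeR adjusted p = 0.277), and Gal one of 5.63 ± 1.00 (edgeR adjusted p = 0.160). Gal was called without intervene 3.

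Compared within replicates 1 to 3, the groups overlapped for every member apart from Oxt, lower in intervene than in model, and Pmch, lower in intervene than in control. Of all genes, 3.78% and 6.07% were lower without overlap in these 2 comparisons. In each comparison, intervene against model, intervene against control and model against control, 0 of 10 members were called, beside 0% of all genes. DESeq2 and limma-voom called 0 as well. Members with an unadjusted p under 0.05 in edgeR numbered 0, 0 and 3, beside 3.79%, 8.56% and 5.83% of all genes, the last being Agrp, Pomc and Cartpt, all lower in model. Cartpt had a log2 fold change of -2.11 ± 0.89 (edgeR adjusted p = 0.825), with 21.3 to 69.7 CPM in model and 69.4 to 286 CPM in control.

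Whether the group differences themselves differed between the sets was fitted as an interaction. The sets were noticed in these data and the members chosen with earlier results known. The p-values of the interaction are thus a description of these libraries. For intervene against control, the log2 difference in replicates 4 to 6 exceeded that in replicates 1 to 3 for 6 of 10 members, and 0 went the other way, beside 9.54% and 8.37% of all genes. Gal had a log2 difference of 7.77 ± 1.23 (SE, edgeR adjusted p = 0.00191), Oxt one of 12.4 ± 2.74 (edgeR adjusted p = 0.00965), Trh one of 5.60 ± 1.47 (0.0206) and Avp one of 10.4 ± 2.86 (0.0259), and Ucn3 (0.0118) and Pmch (0.0405) also passed. Without control 2 or without control 4, 3 members passed, namely Oxt, Gal and Ucn3, and limma-voom called 3, namely Gal, Trh and Ucn3. For intervene against model 0 of 10 members passed in either direction, beside 0.276% and 0.0759% of all genes, with 4 at an unadjusted p under 0.05 in edgeR (17% of all genes), 1 called by DESeq2 (Pmch) and 0 by limma-voom. For model against control 0 of 10 passed, beside 0% of all genes, with 5 under 0.05 before adjustment (11.3% of all genes), 2 called by DESeq2 (Oxt and Gal) and 0 by limma-voom.

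Like the summed precursors, the summed level of a list of hypothalamic transcription factors was lowest in control 4 to 6. The list holds 16 genes, of which 15 passed the filter on low counts. Their summed level was 36.9 to 159 CPM in intervene 4 to 6 and 18.2 to 104 CPM in intervene 1 to 3, 16.9 to 27.6 CPM in model 4 to 6 and 31.1 to 63.0 CPM in model 1 to 3, and 2.41 to 6.74 CPM in control 4 to 6 and 45.4 to 142 CPM in control 1 to 3. The sum did not follow Oxt in every library. It was 18.9 and 18.2 CPM in intervene 1 and 2, where Oxt was near 0, and 19.7 and 16.9 CPM in model 4 and 6, which held Oxt. Different factors carried these similar sums. Nhlh2 had 6.24 and 6.92 CPM in intervene 1 and 2, and 0.447 and 0.630 CPM in model 4 and 6. Otp had 6.14 and 0.777 CPM in intervene 1 and 2, and 3.52 and 1.12 CPM in model 4 and 6. Fezf1 had 0 and 0.324 CPM in intervene 1 and 2, and 1.28 and 0.210 CPM in model 4 and 6. The sum is thus no measure of each factor, and Prdm12 was highest in intervene 5 (11.4 CPM). In control 4 to 6, 6 of the 16 were at 0 in all 3 libraries: Nkx2-4, Rax, Six6, Foxb1, Hmx2 and Hmx3. Within control 12 of 15 were called lower in replicates 4 to 6 and 0 higher, and for intervene against control within replicates 4 to 6, 12 were called higher and 0 lower, beside the 19.6% and 14.7% of all genes given above. Their part in the differences of the precursors was not tested.

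**Figure D5:**
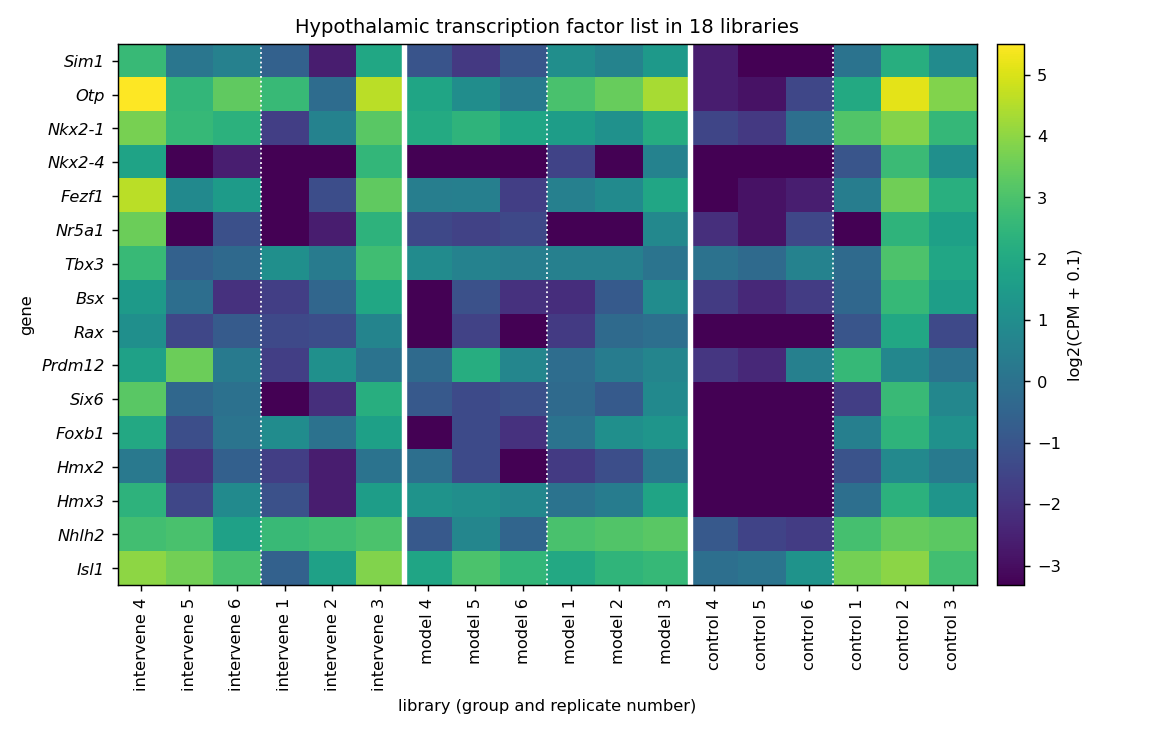
Level of 16 hypothalamic transcription factor genes (rows) in the 18 libraries (columns), as log2(CPM + 0.1). White lines part groups and sets as in the map of the precursor genes. The 6 genes at 0 in all of control 4 to 6 have the darkest colour there, though their rows are not all adjacent, and Nkx2-4 is at 0 in model 4 to 6 too.

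Several of the other genes whose profiles lay closest to a precursor encode hypothalamic transcription factors. Likeness was measured as the root mean square difference of centred log2 CPM over the 18 libraries, among 13632 genes other than the members, with a mean of at least 1 CPM and without those named only as predicted or cDNA models. It is a description in which all points share the libraries and their sets. Tbx3, a factor of the arcuate nucleus, was the closest of these to both Agrp and Pomc (0.84 each), while Agrp and Pomc themselves lay 0.75 apart, the closest pair of members. Fezf1, a factor of the ventromedial hypothalamus, was the closest of these to Oxt (1.87) and Avp (1.30), and Otp, which specifies neuroendocrine neurons, came next for Avp (1.46), while Oxt and Avp lay 1.36 apart. Nkx2-4 was the closest of these to Hcrt (2.44) and Pmch (2.44), farther than the closest non-member of any other member, but Hcrt and Pmch lay nearer to each other, at 1.16.

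The remaining members had other neighbours among these genes. Gal lay closest to Calcr, the calcitonin receptor gene (0.61), and Irs4 (0.65). Trh lay closest to Krt90 (0.60) and Ucn3 to Frem3 (0.90). The closest genes to Cartpt were Ddc (0.61), Th (0.73) and Slc18a2 (0.76), which make and store dopamine. These 3 belong to a list of 4 dopamine neuron markers whose summed level was 29.4 to 68.2 CPM in intervene 4 to 6 and 26.7 to 306 CPM in intervene 1 to 3, 22.2 to 38.4 and 31.4 to 233 CPM in the same sets of model, and 16.4 to 18.01 and 221 to 400 CPM in those of control. None of the 4 was at 0 in all libraries of a set, 4 of 4 were called lower in control 4 to 6 than in control 1 to 3, and their part in the Cartpt values was not tested.

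Of 20 other peptides that hypothalamic neurons make, 16 passed the filter, and many are made in cortex too. Within control, replicates 4 to 6 against 1 to 3, 8 were called lower and 4 higher, beside 19.6% and 18.6% of all genes, with a median log2 fold change of -0.93. Nts, the neurotensin precursor, had a log2 fold change of -3.68 ± 0.67 (edgeR adjusted p = 0.000983), while Npy and Vip, precursors that cortical interneurons also express, rose by 1.30 ± 0.25 (edgeR adjusted p = 0.00100) and 2.32 ± 0.50 (0.00296). For intervene against control within replicates 4 to 6, 6 were called higher and 2 lower, beside 14.7% and 11.2% of all genes (median 0.44). Tac2, Nts and Ghrh rose by 2.49 ± 0.49, 3.09 ± 0.67 and 5.01 ± 1.21 (edgeR adjusted p = 0.00281, 0.00475 and 0.00837).

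Of 15 receptors for the member peptides, 12 passed the filter. Within control 7 were called lower in replicates 4 to 6 and 1 higher, beside the same 19.6% and 18.6% of all genes (median -1.32). Galr1, a galanin receptor, had a log2 fold change of -5.16 ± 0.67 (edgeR adjusted p = 4.46e-05), Avpr1a, a vasopressin receptor, one of -4.09 ± 0.62 (0.000151) and Mc3r, a melanocortin receptor, one of -3.92 ± 0.62 (0.000199). For intervene against control within replicates 4 to 6, 4 were called higher and 0 lower, beside the same 14.7% and 11.2% (median 0.56). Galr1 rose by 5.01 ± 0.67 (edgeR adjusted p = 0.000159), Avpr1a by 3.57 ± 0.62 (0.000852) and Mc3r by 3.45 ± 0.62 (0.00103).

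Genes that process and store peptides were called in both directions, as genes in general were. Of 11 such genes, all measured, 4 were called lower and 2 higher in control 4 to 6 against 1 to 3, beside 19.6% and 18.6% of all genes (median -0.13). For intervene against control within replicates 4 to 6, 2 were higher and 1 lower, beside 14.7% and 11.2% (median -0.07). Pcsk2, a prohormone convertase, had a log2 fold change of 1.29 ± 0.12 in control 4 to 6 against 1 to 3 (edgeR adjusted p = 6.07e-06) and of -0.91 ± 0.12 in intervene 4 to 6 against control 4 to 6 (edgeR adjusted p = 0.000162). Scg2, a granule protein, had one of -1.73 ± 0.32 in control 4 to 6 against 1 to 3 (edgeR adjusted p = 0.000873). Over all libraries, 0 members of these 3 lists were called in any comparison between groups.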

How the data were processed

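Raw counts per gene and FPKM for the 18 libraries were deposited by the authors. Per the submitters' processing notes, HISAT2, featureCounts and the build GRCm39 were used, and the sources used here name no versions. These FPKM, as deposited, equal count divided by length and column total for 18117 of 18117 genes counted in every library (relative tolerance 1e-06), so they add no second measurement. Of counts from 2 to 19, 86.5% were even, so reads need not be independent molecules. The floor of 3 counts takes them as independent and may be too low, and it covers counting error only.

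The members and the gene lists were chosen with earlier results of these data known. Counts were fitted with edgeR 4.0.16 in R 4.3.3 (TMM, filterByExpr, quasi-likelihood test with robust estimation), which kept 18452 genes. The group comparisons used 1 mean per group, and the comparisons within or between replicates 1 to 3 and 4 to 6 used 1 mean per group and set. P-values were adjusted over all tested genes by the Benjamini-Hochberg method at 0.05. An SE was obtained by dividing the absolute log2 fold change by the square root of F. The 10 members were named whatever their values, along with up to 3 genes of lowest p from a list and the 3 closest profiles, not all of which are printed. The lists follow textbook roles. The method was also run on simulated counts, which lacked the difference between the replicate sets seen here, so that run does not show its power in these data.

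No 2 libraries of a group agreed within sampling noise (lowest chi-square per degree of freedom 11.4). Libraries with equal replicate numbers deviated together in model and control (correlation across genes over 0.1 in 6 of 6 pairs, 0.18 to 0.63), which meets the rule used here for pairing, but not in intervene and model (5 of 6) or intervene and control (3 of 6). The deviations are from the mean of all 6 libraries of a group, so they hold the difference between the sets. Unequal numbers within a set were not compared, so this rule cannot tell pairing from the sets. Alternatives were DESeq2 1.42.0, limma-voom and limma 3.58.1 on log2(FPKM + 1), other scalings, no filter, a replicate block, a set covariate and leaving out each library. Promoter windows came from the RefSeq table of GRCm38.p6, which matched 9 of 10 members (not Agrp); its build is not that of the counts.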

Additional observations from a re-analysis of the deposited data

Results flagged for a closer look

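For 6 members the difference between intervene and control itself differed between replicates 4 to 6 and replicates 1 to 3, by the interaction test in edgeR. The log2 difference between the sets was 12.4 for Oxt, 11.2 for Ucn3, 10.4 for Avp, 10.1 for Pmch, 7.77 for Gal and 5.60 for Trh, with edgeR adjusted p between 0.00191 and 0.0405. The Ucn3 value is set against 0 counts in control 4 to 6 and depends on the prior count. Pmch had the highest adjusted p of the 6, and its call was lost without any 1 of the 6 control libraries, model 1, 4, 5 or 6, or intervene 1, 2 or 4. The sets were noticed in these data and are not in the labels, so what parts them was not tested.

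The flag for a library far from the other 5 of its group was raised for 0 of 30 sets of values of a member in a group. Chance alone raises it for about 1 in 20. The flag looks for 1 library that stands alone. The replicate sets differ widely within each group, so several libraries can lie apart together and keep the flag from being raised. The absence of flags therefore does not show that no library was unusual.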

How the results depend on the processing

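The counts of members called between whole groups were 0 under every alternative. The directions behind them reversed in 50 comparisons of a member's whole-group value with an alternative. Pomc and Agrp kept their direction throughout in model against control and in intervene against model. Under limma-voom the log2 fold change of Avp in model against control was 1.83, those of Oxt, Hcrt and Trh in intervene against model were -1.86, -0.77 and -0.58, and those of Agrp and Cartpt in intervene against control were 0.19 and 0.20. Under limma on log2(FPKM + 1), Avp was 0.94 in model against control, Oxt and Trh were -0.89 and -0.42 in intervene against model, and Cartpt was 0.11 in intervene against control. With the replicate block, Avp was 0.39 in model against control, Gal 0.14 in intervene against model, and Agrp and Cartpt 0.013 and 0.20 in intervene against control. With the replicate set as a covariate the values were 0.067 for Avp, 0.27 for Gal, and 0.27, 0.36, 3.90 and 4.18 for Agrp, Cartpt, Hcrt and Pmch in the same 3 comparisons. All of these have the opposite sign to the value without that setting, and none was called in either.

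Leaving out 1 library also turned the sign of some uncalled values. For intervene against control the ranges were -0.97 to 1.40 for Agrp, -0.12 to 2.05 for Avp, -0.88 to 0.45 for Cartpt, -0.0072 to 1.21 for Gal, -1.64 to 0.13 for Hcrt, -0.21 to 2.53 for Oxt, -1.46 to 0.62 for Pmch, -0.39 to 1.37 for Pomc and -0.044 to 1.85 for Trh. For intervene against model they were -0.62 to 0.62 for Oxt, -0.47 to 1.93 for Hcrt, -0.50 to 2.11 for Pmch, -0.44 to 0.12 for Gal and -0.45 to 0.54 for Trh, and for model against control -1.42 to 0.56 for Avp and -0.11 to 1.21 for Ucn3. The other 730 comparisons of a member's whole-group value with an alternative kept their sign.

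Counts between the sets moved as follows. In control limma-voom called 4 members and leaving out 1 library 6 to 10. In model DESeq2 called 2, library totals, no filter and limma-voom called 0, and leaving out 1 library gave 0 to 3. In intervene limma on FPKM called 1, and leaving out 1 library gave 0 to 5. Within replicates 4 to 6, intervene against control gave 3 with limma-voom and 4 to 7 leaving out 1 library, intervene against model gave 3 with DESeq2 and 0 to 2, and model against control gave 4 with DESeq2 and 0 to 1. The interaction gave 3 with limma-voom and 3 to 8 leaving out 1 library for intervene against control, 1 with DESeq2 for intervene against model, and 2 with DESeq2 for model against control. The cause was not tested. With the replicate block the count for intervene against control within replicates 4 to 6 was 5, without Hcrt and Pmch, and its interaction count was 5, without Pmch, although those groups did not meet the rule for pairing. The block changed no other count. Values from 1 to 20 counts, as in control 4 to 6, limit the precision of the largest folds.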
